A study of Homo sapiens with 2 samples.

Results

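The ATP-binding cassette (ABC) genes were examined in the RNA-seq data of the H2087 and H596 cell lines. Members were the genes whose symbol in the deposited gene table is ABC, a subfamily letter from A to G and a number, without pseudogenes. Of 46 such symbols, ABCC13 had only non-coding transcripts and was left out, so that 45 of 27685 listed genes were members, with 114 of 63714 listed transcripts. They comprised 12 genes of subfamily ABCA, 9 of ABCB, 11 of ABCC, 4 of ABCD, 1 of ABCE, 3 of ABCF and 5 of ABCG. CFTR, TAP1 and TAP2 belong to the same family under other names and are given apart.

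Both are established human cell lines that the labels describe as lung adenocarcinoma, grown in RPMI medium with fetal bovine serum and left untreated. There was 1 library of each line, so no difference between them has a replicate check, no test was possible, and cell line and library cannot be told apart. The estimated counts summed to 46961500 in H2087 and 55387847 in H596. Levels are in FPKM (fragments per kilobase of transcript, scaled to the mapped fragments of the library), which is a level per length, as given by the authors' tables. Each FPKM is followed by the 95% Wilson interval of the count behind it, which covers counting error only.

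ABC proteins bind and split ATP in paired nucleotide-binding domains, and most of them use it to move a substrate across a membrane. The subfamilies differ in cargo and place. Many ABCC proteins, ABCB1 and ABCG2 export drugs and conjugates at the cell surface, most ABCA proteins and several ABCG proteins move lipids, most ABCD proteins take fatty acyl-CoAs into peroxisomes, and ABCE1 and the ABCF proteins have no membrane domain and act on ribosomes. In lung tissue ABCA3 is known for loading surfactant lipids into the lamellar bodies of alveolar type II cells.

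The labelled cell type was compared with marker genes. Of the glandular lung markers, NKX2-1 stood at 110 FPKM in the H2087 library and at 0.508 in that of H596, and KRT7 had 791 and 608, whereas SFTPB and SFTPC, the surfactant protein genes, were at or near 0 in both (0.123 and 0 for SFTPB, 0 and 0.0301 for SFTPC). The squamous markers TP63 and KRT5 had 0.183 and 0 in H2087 and 55.2 and 106 in H596. Over the whole lists, 4 of the 5 adenocarcinoma markers examined were at least 2-fold lower and 4 of the 5 squamous markers examined were at least 2-fold higher in H596. The summed FPKM of the squamous list was 40.8 in H2087 and 307 in H596, most of the former being SOX2. These lines therefore differed in lineage markers as well as in ABC genes, and the part of this in the values below was not tested. The leukocyte markers PTPRC and CD3E and the fibroblast collagen COL1A2 were at 0 in both libraries, and the 3 endothelial markers were under 0.5. Among the other markers of these lists, DCN was at 0 and 9.77, COL1A1 at 3.89 and 0.916, and CD68, a lysosomal protein that epithelial cells can also express, at 128 and 25.6.

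An FPKM of at least 1 was reached by 24 members in H2087 and by 22 in H596, 19 of them in both. Of the 19368 genes with a coding transcript, 59.4% reached it in H2087 and 59.3% in H596. ABCA3, ABCA4, ABCC2, ABCC6 and ABCG2 reached it in H2087 alone, and ABCA5, ABCA12 and ABCG1 in H596 alone. None of the 45 members reached an FPKM of 100, which 2.54% of all genes did in H2087 and 2.30% in H596. The highest member in H2087 was ABCE1 (39.8, interval 38.9 to 40.7), and the highest in H596 was ABCF1 (65.1, 63.9 to 66.2). Together the members held 0.136% of the estimated counts in H2087 and 0.146% in H596, with a summed FPKM of 308 and 339.

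For each gene whose FPKM averaged at least 1 over both libraries, log2(FPKM + 1) of H2087 was subtracted from that of H596. A difference of 1 or more in either direction is called 2-fold here. On this scale, differences of genes with a low FPKM are smaller than their FPKM ratio. Of 27 members past the filter, 6 were at least 2-fold higher in H596, 6 were at least 2-fold lower and 15 were under 2-fold in both directions. Of all 13048 genes examined, 18.2% were higher and 14.2% were lower by the same measure, so members stood on either side about as often as genes in general did. The median difference was -0.13 over the members and 0.12 over all genes examined. Just inside the threshold were ABCC5 (1.24) and ABCC2 (-1.35), and just outside were ABCF1 (0.98), ABCC4 (0.98) and ABCB9 (-0.94).

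**Figure D1:**
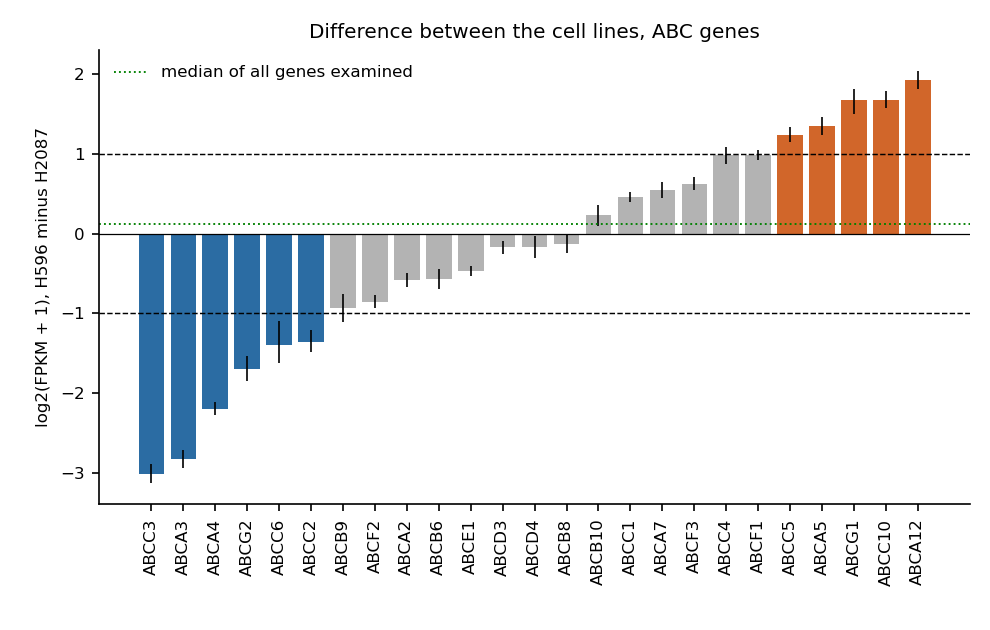
Difference in log2(FPKM + 1), taken as H596 minus H2087, for 25 of the ABC genes past the filter, with error bars from the 95% counting intervals of both libraries. Dashed lines mark the 2-fold threshold and the dotted line the median of all genes examined (0.12). The bars run from ABCC3 (-3.01) to ABCA12 (1.93), with 6 genes past the threshold below 0 and 5 above it.

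The counting intervals of the libraries did not overlap for any of the 25 genes plotted, whereas they overlapped for 12.1% of all genes examined. Counting error was thus small beside most of these differences, but the spread between cultures of a line was not measured. The levels of the same 25 genes are plotted by role.

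**Figure D2:**
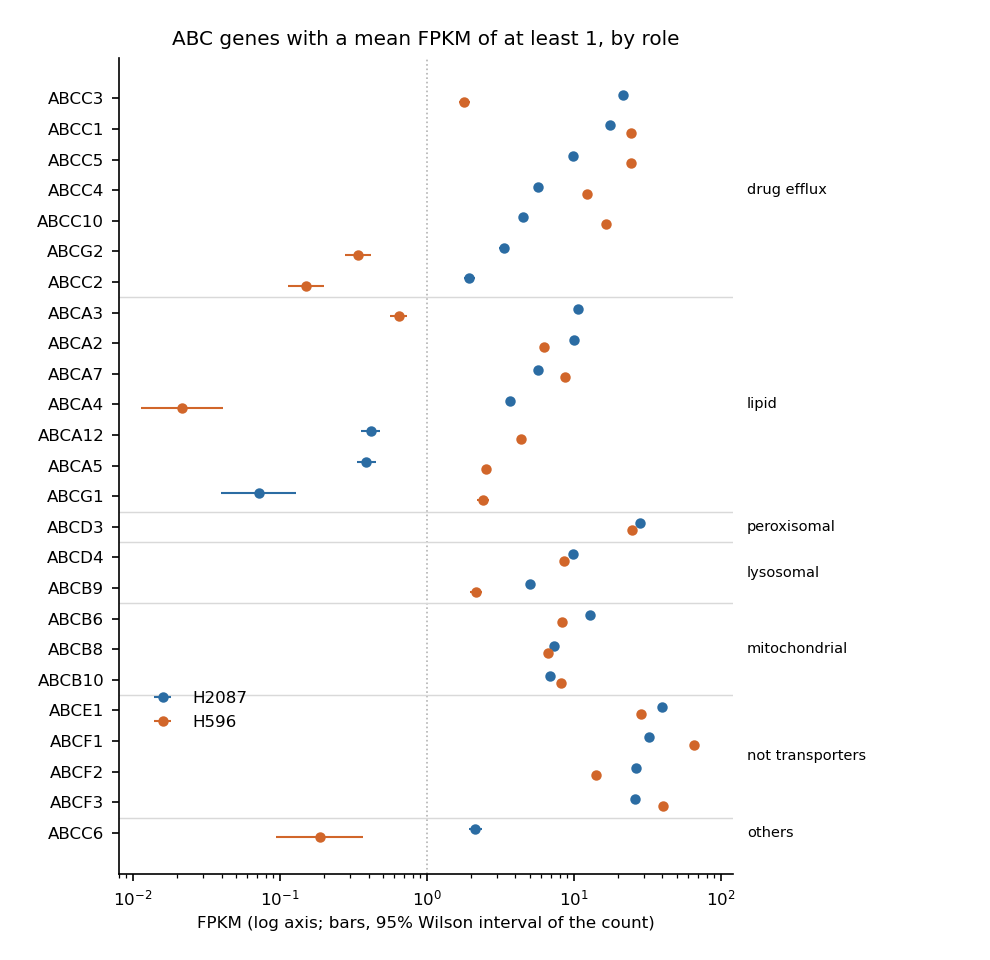
FPKM (log axis) of 25 of the ABC genes past the filter in H2087 and H596, grouped by role, with 95% Wilson intervals of the count. The mitochondrial genes shown and the 4 genes without a membrane domain lie above 5 in both lines, while the drug efflux genes spread from under 1 to over 20 and the lipid genes from under 1 to 10.6.

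Drug efflux genes differed in make-up more than in sum. The 9 genes of this group summed to 64.4 FPKM in H2087 and to 80.4 in H596, a ratio of 1.25 (1.17 to 1.34 with every gene at the ends of its counting interval). Of 7 past the filter, 3 were at least 2-fold lower in H596, 2 were at least 2-fold higher and 2 were under 2-fold. Over all genes examined, 14.2% were lower and 18.2% were higher, and 7 genes are too few to set apart from these shares. The ratio of the sums rested on single genes, being 1.02 without ABCC5 and 1.83 without ABCC3.

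ABCC3 (MRP3), which exports glucuronides and bile salts across the basolateral membrane, led the group in H2087. It stood at 21.5 FPKM (20.9 to 22.1) in H2087 and at 1.796 (1.64 to 1.96) in H596, from 5262 and 488 counts. It was 11.99-fold lower in H596 (10.9 to 13.2), the lowest difference of all members, and its share of the summed drug efflux FPKM was 33.4% in H2087 and 2.23% in H596. ABCC2 (MRP2), the apical exporter of conjugates, stood at 1.94 FPKM (1.77 to 2.11) in H2087 and at 0.150 (0.113 to 0.200) in H596. It was the lowest in FPKM of the efflux genes past the filter in H596. ABCG2, the breast cancer resistance protein, which carries urate, porphyrins and many drugs, had 3.34 (3.10 to 3.59) in H2087 and 0.342 (0.278 to 0.419) in H596. Both ABCC2 and ABCG2 were above an FPKM of 1 in H2087 alone, and were 12.9-fold (9.55 to 17.8) and 9.77-fold (7.85 to 12.3) lower in H596.

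In H596 the highest of the group were ABCC5 and ABCC1. ABCC5 (MRP5), which exports cyclic nucleotides and nucleotide analogues, stood at 9.85 FPKM (9.44 to 10.3) in H2087 and at 24.6 (24.0 to 25.2) in H596, 2.50-fold higher (2.38 to 2.63). ABCC1 (MRP1), the exporter of glutathione conjugates and leukotriene C4, had 17.5 (17.0 to 18.0) and 24.4 (23.9 to 24.9). The intervals of ABCC5 and ABCC1 in H596 overlapped, so their order there was not resolved. ABCC10 (MRP7), a broad exporter of lipophilic drugs, had 4.48 (4.22 to 4.76) in H2087 and 16.5 (16.1 to 17.0) in H596, 3.69-fold higher (3.45 to 3.95). ABCC4 (MRP4), which exports cyclic AMP and prostaglandins, had 5.73 (5.45 to 6.03) and 12.3 (11.9 to 12.7). Its FPKM ratio was 2.14, and on the log2(FPKM + 1) scale it lay just under 2-fold. Of the 7 genes of the group past the filter, ABCC1 was the closest between the lines, with a difference of 0.46.

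ABCB1, the P-glycoprotein of classical multidrug resistance, had 0 counts in H2087 and 65 in H596. Its FPKM in H596 was 0.239 (0.188 to 0.305), at least 18.4-fold higher than 3 counts would give in H2087, and it stayed below the filter. ABCC11 (MRP8) had 4 and 15 counts, and the interval of its ratio included equal levels (0.942 to 12.2).

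**Figure D3:**
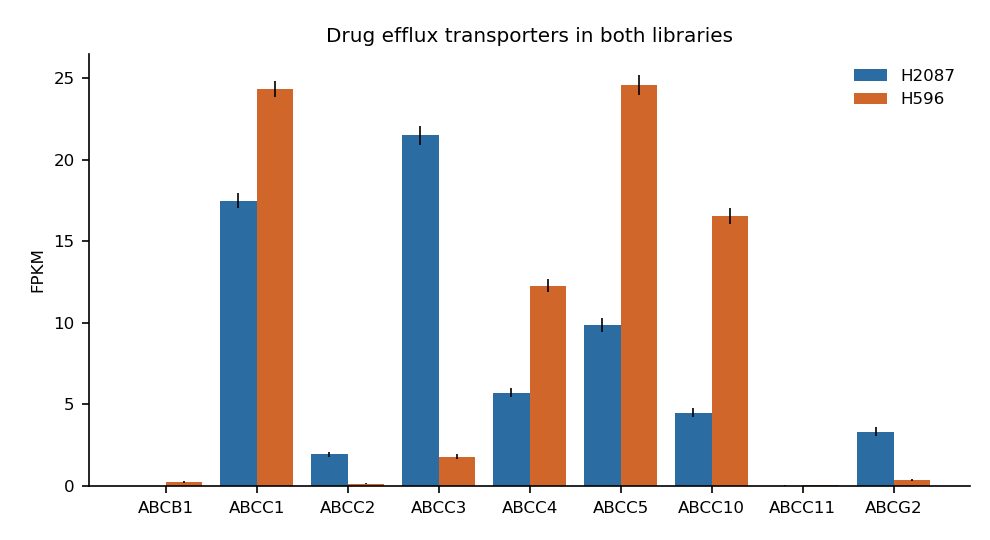
FPKM of the 9 drug efflux genes in H2087 and H596, with 95% Wilson intervals of the count. ABCC3 stands at 21.5 in H2087 and 1.796 in H596, ABCC5 at 9.85 and 24.6, and ABCC10 at 4.48 and 16.5, while ABCB1 and ABCC11 lie below 0.3 in both lines.

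The promoter bases of a few members are shown here because ABCG2 reads fell on transcripts with different start sites in the lines, and because ABCA3 had the lowest difference of the lipid group. For each start site the 250 bases before it were read from the hg19 (GRCh37) genome, and the longest stretch outside annotated exons is printed on the strand of the gene, 5′ to 3′. Capitals mark the motifs searched on both strands: the GC box GGGCGG, the CCAAT box CCAAT, the TATA box TATAAA, the E-box CACGTG and the core of the antioxidant response element TGACNNNGC. The stretches are chr4:89080177-89080261 (minus strand) and chr4:89152781-89153028 (minus strand) for ABCG2 and chr16:2390748-2390922 (minus strand) for ABCA3.
ABCG2, start site of most reads in H2087: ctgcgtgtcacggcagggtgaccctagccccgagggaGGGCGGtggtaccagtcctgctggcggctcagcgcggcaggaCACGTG
ABCG2, start site of most reads in H596: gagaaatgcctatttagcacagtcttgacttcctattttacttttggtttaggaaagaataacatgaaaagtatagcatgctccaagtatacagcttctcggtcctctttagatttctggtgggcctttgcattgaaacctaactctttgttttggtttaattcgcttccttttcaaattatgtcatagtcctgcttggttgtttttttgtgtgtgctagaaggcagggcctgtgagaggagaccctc
ABCA3: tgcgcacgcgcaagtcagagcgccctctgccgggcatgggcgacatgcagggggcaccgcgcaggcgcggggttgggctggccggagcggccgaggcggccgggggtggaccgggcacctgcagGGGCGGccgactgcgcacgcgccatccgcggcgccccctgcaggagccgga

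In H2087, 86.1% of the ABCG2 FPKM was assigned to transcripts starting at base 89080011 of chromosome 4 and 13.9% to the transcript starting at 89080475. In H596, 97.9% of it, from 90 counts, was assigned to transcripts starting at 89152778, which is 72767 bases further upstream, and that site had 0 counts in H2087. The 250 bases before the downstream site had a GC content of 72.4% and held GC boxes 213 and 102 bases and an E-box 171 bases before the start, the nearest of them outside the printed stretch. Those before the upstream site had a GC content of 40% and held none of the 5 motifs. The transcripts of ABCG2 share most of their exons, and the H596 value rests on 92 counts in all. ABCA3 had a GC box 51 bases before its start and 1 match to the antioxidant response core 179 bases before it, whose first bases lie outside the printed stretch and whose last bases open it in lower case.

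For the shares below a single window per gene was used, that of the start site with the highest FPKM summed over both libraries. For ABCG2 this was the site with 72.4% GC. The choice of site and the classes by FPKM thus rest on the same values. Over all 45 members, 46.7% of these windows held a GC box, 17.8% a CCAAT box, 15.6% a TATA box, 13.3% an E-box and 15.6% an antioxidant response core. Over the 18449 coding genes with a window the shares were 53.3%, 32.8%, 8.62%, 6.95% and 10.7%. Median GC content was 69.6% for the 19 members at an FPKM of at least 1 in both lines, 60.2% for the 8 at that level in 1 line and 44.2% for the 18 under it in both. The same order was seen over all coding genes, with 64.0%, 62.4% and 54.4%. GC boxes followed it among the members, with 73.7% of the 19 and 22.2% of the 18, beside 66.5% and 32.4% of all coding genes. A motif match is a description of the letters and shows no binding.

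Among members with several transcripts and counts in both libraries, the highest transcript differed between the lines for 5 of 20, beside 18.5% of the 7940 genes examined in the same way. ABCG2 was one of them. For ABCF3, NM_018358 held 92.2% of the FPKM in H2087, whereas in H596 the highest transcript, NM_001351299, held 31.2%. ABCC6 and ABCG1 had 8 counts in H596 and 11 counts in H2087, so that their highest transcript there rests on few reads. For ABCA12 the transcript with all reads in H2087 was NR_103740, a non-coding one, and NM_173076 held 98.9% in H596, with both starting at the same base.

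Start sites also differed in share for ABCA5 and ABCA2. The ABCA5 transcript starting at 67323323 on chromosome 17 had 451 counts in H596, 38.3% of the gene's FPKM, and 0 in H2087. The upstream ABCA2 site held 18.2% of the FPKM in H2087 and 6.23% in H596. For ABCC10 the first site held most of the FPKM in both lines, 79.6% and 88.2%, and all 406 ABCG1 counts of H596 lay on transcripts starting at 43639267 of chromosome 21.

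**Figure D4:**
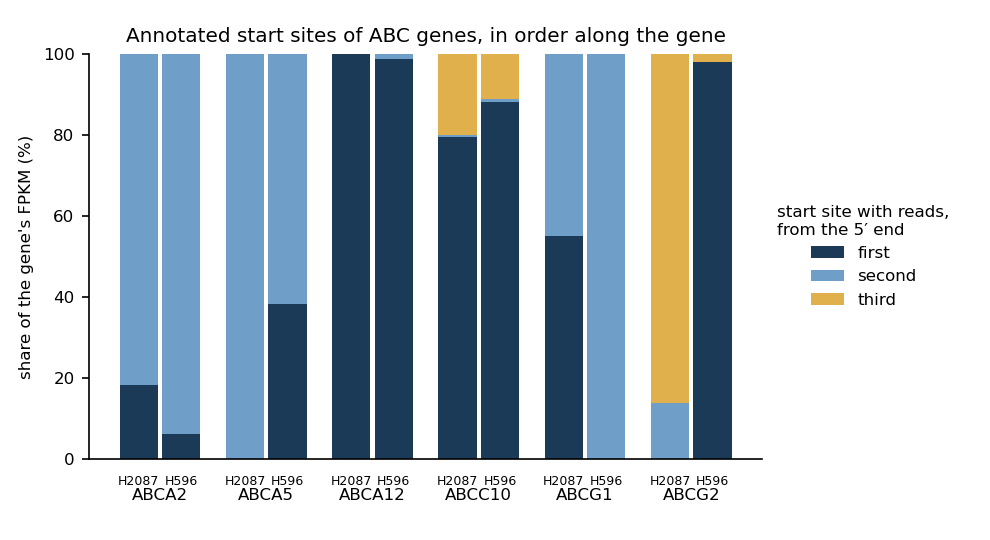
Share of each gene's FPKM (percent) assigned to its annotated start sites in H2087 and H596, for 6 ABC genes with reads at several sites, coloured by the order of the sites from the 5′ end of the gene. For ABCG2 the main site is the third in H2087 (86.1%) and the first in H596 (97.9%). The main site of ABCG1 differs too, but its H2087 bar rests on 11 counts.

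The lipid group had 17 members, of which 7 passed the filter. In H596, 3 of them were at least 2-fold higher, 2 were at least 2-fold lower and 2 were under 2-fold. The shares over all genes examined were 18.2% higher and 14.2% lower. The summed FPKM was 31.1 in H2087 and 25.9 in H596. ABCA3, the lamellar body lipid transporter, stood at 10.6 FPKM (10.3 to 10.98) in H2087 and at 0.640 (0.564 to 0.726) in H596, 16.6-fold lower (14.6 to 19.0). Its gene, on chromosome 16 from 2325879 to 2390747, starts next to the pseudogene ABCA17P on the other strand, which had 2 and 8 counts.

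ABCA4, the retinoid transporter known from photoreceptors, stood at 3.67 FPKM (3.48 to 3.88) in H2087 and at 0.0214 (0.0113 to 0.0407) in H596. With 1290 counts against 9, it was 172-fold lower in H596 (90.1 to 376), the largest FPKM ratio of the members past the filter. ABCA3 and ABCA4 were the only members of the lipid group that were at least 2-fold lower in H596.

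ABCA12, which loads glucosylceramides into the lamellar granules of keratinocytes, had 0.413 (0.357 to 0.478) in H2087 and 4.38 (4.203 to 4.56) in H596, 10.6-fold higher (9.11 to 12.4). The squamous markers given above moved in the same direction, and their part in this was not tested. ABCG1, which sends cholesterol out to high-density lipoprotein, had 0.0715 (0.0399 to 0.128) and 2.41 (2.18 to 2.65), 33.6-fold higher (18.6 to 67.9), from 11 and 406 counts. ABCA5, a lysosomal member linked to cholesterol, had 0.386 (0.333 to 0.448) and 2.54 (2.40 to 2.68). All 3 were under an FPKM of 1 in H2087, and the intervals of ABCA5 and ABCG1 in H596 overlapped.

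ABCA2 and ABCA7 were the lipid genes above an FPKM of 5 in both lines. ABCA2, a lysosomal member abundant in oligodendrocytes, had 9.93 (9.62 to 10.2) in H2087 and 6.30 (6.07 to 6.53) in H596. ABCA7, which moves phospholipids and is a risk gene of Alzheimer's disease, had 5.66 (5.41 to 5.92) and 8.70 (8.41 to 9.001). Both were under 2-fold, in opposite directions (-0.58 and 0.54). ABCA1, the exporter of cholesterol to apolipoprotein A-I, was low in both lines, with 0.326 (0.279 to 0.379) and 0.167 (0.137 to 0.203). ABCA13, a very long member of unsettled cargo, had 15 and 492 counts and an FPKM of 0.0170 and 0.505. Neither ABCA1 nor ABCA13 passed the filter, although the FPKM of ABCA13 was 29.7-fold higher in H596 (17.8 to 53.4). Of the other lipid genes below the filter, ABCA8, ABCB4, ABCG5 and ABCG8 were at 0 in both lines, ABCA6, ABCA9 and ABCA10 were at 0 in H2087 with 17, 6 and 48 counts in H596, and ABCG4 had 3 counts in H2087 and 0 in H596.

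Of the peroxisomal genes, ABCD3 (PMP70), which imports branched-chain acyl-CoAs and bile acid precursors, had 28.0 (27.2 to 28.8) in H2087 and 24.7 (24.1 to 25.4) in H596, under 2-fold. ABCD2, a transporter of very long chain fatty acyl-CoAs, had 0 counts in both lines. Among other peroxisomal genes, the assembly factors PEX19 (28.4 and 31.0), PEX3 (9.62 and 5.37) and PEX16 (11.8 and 8.93), the beta-oxidation enzyme HSD17B4 (42.8 and 49.5) and the acyl-CoA synthetase SLC27A2 (29.3 and 15.3) were under 2-fold.

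The lysosomal pair was higher in H2087. ABCD4, which releases cobalamin from lysosomes, had 9.77 (9.28 to 10.3) and 8.58 (8.16 to 9.03), and its partner LMBRD1 had 8.86 and 11.4. ABCB9, the lysosomal peptide transporter TAPL, had 5.05 (4.72 to 5.41) and 2.16 (1.96 to 2.38), a 2.34-fold ratio (2.08 to 2.64) that lay just under 2-fold on the log2(FPKM + 1) scale.

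The mitochondrial genes ABCB6, ABCB8 and ABCB10 were under 2-fold and above an FPKM of 6 in both lines. ABCB8, linked to mitochondrial iron export, had 7.35 (7.004 to 7.72) in H2087 and 6.65 (6.35 to 6.97) in H596. ABCB6, linked to porphyrins, had 12.8 (12.2 to 13.4) and 8.27 (7.85 to 8.71), and ABCB10, a haem synthesis factor of the inner membrane, had 6.83 (6.46 to 7.22) and 8.18 (7.81 to 8.57). All 6 haem and iron-sulfur genes listed beside them were under 2-fold, with ALAS1, the first enzyme of haem synthesis, at 31.3 and 17.1. Most genes were under 2-fold, as 18.2% of all genes examined were higher and 14.2% were lower. These few genes cannot be set apart from those shares.

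The 4 genes without a membrane domain were the most abundant role group, summing to 124 FPKM in H2087 and to 148 in H596. None differed by 2-fold on the log2(FPKM + 1) scale, beside 18.2% of all genes examined that were higher and 14.2% that were lower. ABCE1, which splits ribosomes after termination, had 39.8 in H2087 and 28.5 (27.9 to 29.2) in H596. ABCF1, which acts with the initiation factor eIF2, had 32.4 (31.5 to 33.3) and 65.1, a ratio of 2.01 that lay just under 2-fold on that scale. ABCF2 had 26.3 (25.6 to 27.0) and 14.1 (13.6 to 14.6), 1.86-fold lower in H596 (1.79 to 1.94), and ABCF3 had 25.9 (25.01 to 26.8) and 40.4 (39.4 to 41.5). The ABCF3 difference of 0.62 was -0.87 when the highest single transcript was taken in place of the gene. ABCF2 and ABCF3 were level in H2087, where their intervals overlapped, and apart in H596. Among the genes listed with ribosome recycling, PELO, the partner of ABCE1 in rescue, had 20.1 and 9.56. Of the 4 listed, 1 was at least 2-fold lower in H596, beside 14.2% of all genes examined. It was GCN1 (43.7 and 19.9), the activator of the kinase GCN2.

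The remaining members were low. ABCC6, which promotes ATP release and is mutated in pseudoxanthoma elasticum, stood at 2.13 FPKM (1.92 to 2.36) in H2087 and at 0.187 (0.0945 to 0.368) in H596, from 356 and 8 counts. A transcript of 718 bases held 37.2% of this FPKM in H2087 from 28 counts, and all 8 counts in H596. The intervals treat all counts of the gene alike and do not cover this. The near-identical copies of ABCC6, ABCC6P1 and ABCC6P2, had 124 and 22 counts in H2087 and 0 and 22 in H596. Reads of the 3 genes may therefore have been divided among them. ABCB11, the bile salt export pump, had 4 and 183 counts, with an FPKM of 0.675 (0.584 to 0.780) in H596. The sulfonylurea receptors of ATP-sensitive potassium channels were nearly silent, with ABCC8 at 0 in both lines and ABCC9 at 0 in H2087 and 34 counts in H596. ABCB5 had 12 counts in H596, and ABCC12 had none in either line.

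In all, 7 members had 0 counts in both libraries (ABCA8, ABCB4, ABCC8, ABCC12, ABCD2, ABCG5 and ABCG8). A count of 0 allowed up to 3 counts, which for these genes is an FPKM of 0.0106 to 0.0240 in H2087 and 0.00902 to 0.0203 in H596. Another 6 were at 0 in H2087 alone and 1 in H596 alone.

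The family members with other names were TAP1 and TAP2, the peptide transporter of antigen presentation, and CFTR, the chloride channel. TAP1 had 22.8 (22.0 to 23.6) in H2087 and 54.2 (53.1 to 55.3) in H596 and was at least 2-fold higher in H596. TAP2 had 26.9 (26.3 to 27.6) and 48.6 (47.8 to 49.3), under 2-fold. Of 4 peptide loading genes examined, 1 was at least 2-fold higher, their bridging protein TAPBP (28.3 and 129). The other 3, CALR (263 and 399), PDIA3 (173 and 308) and B2M (1720 and 1724), were under 2-fold. CFTR was low in both, with 0.385 and 0.0430.

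Genes that act with the ABC transporters were read from lists chosen by function. Beside the calls in these lists, 18.2% of all genes examined were at least 2-fold higher in H596 and 14.2% were lower. Glutathione is a co-substrate of ABCC1 and ABCC2, and the subunits of the enzyme that limits its synthesis, GCLC and GCLM, stood at 179 and 32.3 FPKM in H2087 and at 21.0 and 4.63 in H596. Of the 4 conjugation genes examined, these 2 were at least 2-fold lower and UGT1A6, a glucuronosyltransferase, was at least 2-fold higher, with 0 in H2087 and 43.7 in H596. Of 10 receptors and factors examined, 3 were at least 2-fold higher, which were RXRA (8.75 and 33.6), the aryl hydrocarbon receptor AHR (18.4 and 48.5) and KEAP1, the inhibitor of NRF2 (11.8 and 46.2). The liver X receptor gene NR1H3 and PPARG were at least 2-fold lower, with 5.59 and 2.25 and with 22.0 and 10.4, and NFE2L2, which encodes NRF2, was under 2-fold (42.3 and 62.6). NR1I2 and NR1I3, the xenobiotic receptors PXR and CAR, were at or near 0.

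Of the sterol and lipid acceptors, 2 of 4 examined were at least 2-fold lower in H596, APOE (11.9 and 0.295) and NPC2 (564 and 162). In the lamellar body list, NAPSA (21.9 and 0.0645) and LPCAT1 (147 and 16.5) were at least 2-fold lower, as ABCA3 was, and LAMP3 was higher (1.13 and 7.24). Of the 6 drug uptake carriers examined, SLCO4A1 (47.7 and 5.40), the nucleoside carrier SLC29A1 (28.5 and 6.05) and the folate carrier SLC19A1 (10.9 and 4.204) were at least 2-fold lower, SLCO3A1 (2.33 and 16.5) and SLCO1B3 (0 and 2.98) were higher, and the copper carrier SLC31A1 was under 2-fold (13.2 and 13.7). The copper exporter ATP7A was under 2-fold (1.74 and 3.92). Of the potassium channel pores listed, KCNJ8, a partner of ABCC9, was at 0 in both lines. KCNJ11 had 1.51 FPKM in H2087 and 0.124 in H596, from 243 and 24 counts, and was below the filter.

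For each member past the filter, the median difference of the 40 nearest genes examined on its chromosome was taken as the level of its neighbourhood. These medians ran from -0.61 for ABCB9 to 0.90 for ABCC10. The neighbours of ABCC10 on chromosome 6 were higher in H596 in 33 of 40 cases, beside 55.2% of all genes examined. The neighbourhoods of ABCA3 (0.08), ABCG2 (0.03), ABCA12 (0.05) and ABCC5 (0.06) had medians near 0, while these genes differed by -2.82, -1.69, 1.93 and 1.24. Those of ABCC2 (-0.59) and ABCA5 (0.56) lay on the side of the gene, with gene differences of -1.35 and 1.35. That of ABCC6 (0.34) lay on the other side from the gene (-1.40). Gene copy number was not measured, and its part in any of these values was not tested.

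**Figure D5:**
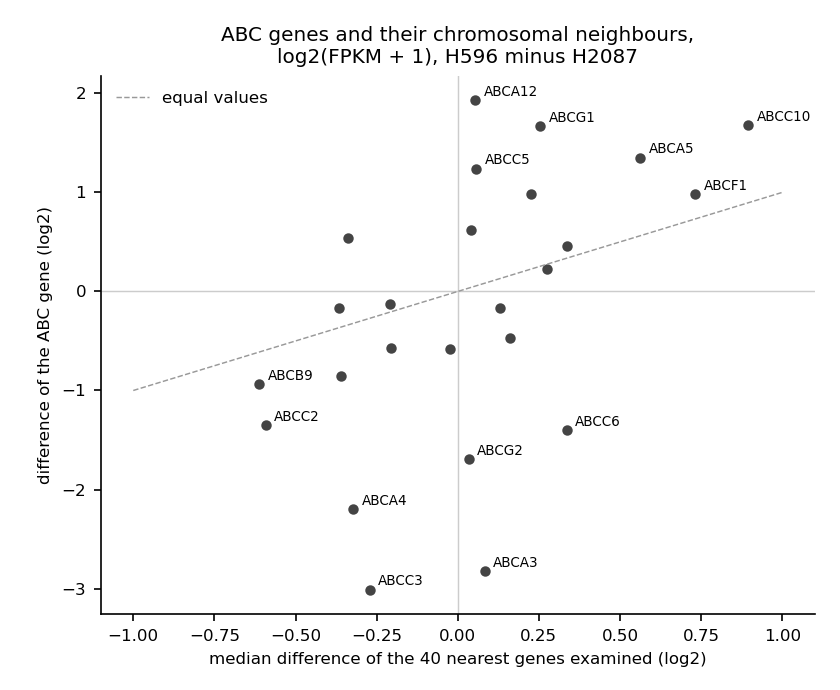
Difference in log2(FPKM + 1), taken as H596 minus H2087, of 25 of the ABC genes past the filter (vertical) against the median difference of the 40 nearest genes examined on its chromosome (horizontal). The dashed line marks equal values. ABCC10 lies at 0.90 and 1.68, whereas ABCC3 and ABCA3 lie far below neighbours at -0.27 and 0.08.

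Some members that lie next to each other differed in their values and others moved the same way or were both at 0. ABCB8 and ABCF2 on chromosome 7, 160053 bases apart, had differences of -0.13 and -0.85. ABCG5 and ABCG8 on chromosome 2, 144 bases apart, were at 0 in both lines. ABCC1 and ABCC6, 6491 bases apart on chromosome 16, had differences of 0.46 and -1.40, the latter with 8 ABCC6 counts in H596. ABCC5 and ABCF3 on chromosome 3, 168114 bases apart, had 1.24 and 0.62, and ABCA4 and ABCD3 on chromosome 1, 297227 bases apart, had -2.19 and -0.17. In the ABCA cluster of chromosome 17, ABCA5 was the one gene past the filter among 5. Its neighbour ABCA10 overlaps it by 381 bases and had 0 and 48 counts. ABCC10 overlaps DLK2 by 74 bases and ABCE1 overlaps ANAPC10 by 538, and whether the authors' counting used strand is not given in the sources used here. DLK2 stood at 0.289 FPKM in H2087 and at 26.6 in H596, and ANAPC10 had 8.22 and 5.03.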

How the data were processed

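Total RNA of 1 untreated culture each of H2087 and H596 cells had been made into stranded mRNA libraries and sequenced. Per the labels, bcl2fastq 1.8.4, Trimmomatic, HISAT2 2.0.5 and StringTie 1.3.3b were used with hg19. The authors deposited estimated counts, which were whole numbers and were taken as rounded expected counts, and FPKM values, for genes and for RefSeq transcripts with their lengths. How the counts were derived is not given in the sources used here.

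Genes whose FPKM averaged at least 1 were compared by log2(FPKM + 1). Levels carry 95% Wilson intervals and ratios exact conditional binomial intervals, and a count of 0 was taken to allow up to 3. Members past this filter were named with both values, and the others by counts or ranges. A few genes are counted in the totals and not reported here by name. The members and lists were chosen with earlier results of these data known, and the position plots and motif searches were added after values were seen. Older symbols were matched through gene tables. Promoter windows came from GRCh37 and exons from GENCODE mapped to it. Alternatives were a pseudocount of 0.1, TPM, TMM scaling (edgeR 4.0.16, R 4.3.3), centring, transcript values and other filters. Calls and intervals were tested on simulated data with counting error only. The changes put into these data were larger than the threshold and fell on well-counted genes. They therefore do not bear on calls of genes with few counts or on variation between cultures. Python 3.11.15, numpy 2.4.6, pandas 2.3.3, scipy 1.17.1 and matplotlib 3.10.9 were used.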

Additional observations from a re-analysis of the deposited data

Results flagged for a closer look

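Genes outside the 45 members whose symbols mark them as ABC pseudogenes carried more counts than the 3 that a count of 0 allows. ABCA11P had 280 estimated counts in H2087 and 540 in H596, an FPKM of 3.08 and 5.02, above many coding members. ABCA17P, which lies head to head with ABCA3, had 8 in H596. ABCC6P1 had 124 in H2087, where ABCC6 had 356, and 0 in H596, where ABCC6 had 8. ABCC6P2 had 22 in H2087 and 22 in H596. How reads were divided between ABCC6 and its copies was not tested.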

How the results depend on the processing

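All 12 genes past 2-fold kept their sign under every alternative. By the size of the difference alone, 9 of them stayed past 2-fold under the 6 alternatives that change values at the same filter threshold. ABCG1 is among these 9, with 1.38 for the highest single transcript, although it did not pass the filter there. Of 37 alternative values of the main results, 28 stayed close and 9 moved. Differences of single genes moved more often, with 89 of 162 alternative values staying close and 73 moving. The 6 genes higher in H596 became 3 with the highest single transcript in place of the gene's FPKM, where ABCC5 (0.997), ABCA5 (0.89) and, through the filter, ABCG1 dropped out, and 3 when the filter was set at a mean FPKM of 5. The 6 lower genes became 2 under that filter, which ABCA4, ABCC6, ABCC2 and ABCG2 did not pass. The median difference of -0.13 became 0.037 with TPM and 0.00 with no filter on FPKM, while that of all genes examined became 0.29 with TPM. The ratio of summed drug efflux FPKM, 1.25, became 1.42 with TPM, 1.14 with TMM scaling, 1.02 without ABCC5 and 1.83 without ABCC3, the last chosen after seeing the data. ABCF1 and ABCC4 passed 2-fold with TPM or a pseudocount of 0.1, and ABCB9 passed it with that pseudocount, TMM scaling or centring. ABCC6 fell below it with the highest single transcript (-0.94). Among genes under 2-fold, ABCF3 changed sign with the highest single transcript (0.62 to -0.87), and with TPM ABCB8 (-0.13 to 0.037) and ABCD3 (-0.17 to 0.0051) did.

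No paired analysis was possible because the data hold a single library of each line. Leaving out a library was not possible either. Depth limits the genes under about 100 counts, among them ABCG2 and ABCC2 in H596 and ABCG1 in H2087.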
